A study of Homo sapiens with 2 samples.

Results

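RHEB, MTOR, RPTOR, TSC1, TSC2, the sestrin genes SESN1, SESN2 and SESN3, DDIT4 and the pseudogene RHEBP1 were taken from the deposited expression table by gene name. All 10 names had a row, of 23376 gene rows in all. AGS, a human cell line established from a gastric adenocarcinoma, was grown in medium with serum. In the GGT7 group the cells carried a stably transfected plasmid for ectopic expression of GGT7, which belongs to the gamma-glutamyltransferases. In the control group they carried a negative control plasmid and were labelled WT. Both were sampled at 2 weeks, and each group was 1 library. Neither the promoter of the plasmid nor whether a line was 1 clone or a pool is stated in the labels. The genes were chosen with their values in these same libraries known, so all differences below are descriptions and none was tested.

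mTORC1 is a protein kinase complex on the lysosome that promotes protein and lipid synthesis and holds back autophagy when nutrients and growth factors are present. RHEB, a small GTPase, switches the kinase on. The TSC complex switches RHEB off, and the sestrins and DDIT4 are stress-induced brakes that act upstream of mTORC1. RNA levels do not show protein amounts or kinase activity, which were not measured here.

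The summed counts were 10289206 in the GGT7 library and 13482913 in the control library, and 14238 genes reached 1 FPKM in the higher library. FPKM divides a count by the length of the gene and by the library total. GGT7 itself had 470 counts in the GGT7 library and 90 in the control library, 6.84-fold higher (5.45 to 8.67). Of 5 epithelial marker genes the keratin gene KRT18 was highest, at 117 FPKM in the GGT7 library and 111 FPKM in the control library. KRT8 was at 45.4 FPKM in the GGT7 library and 70.0 FPKM in the control library. CDH1, which encodes E-cadherin, was low, at 0.779 FPKM in the GGT7 library and 0.482 FPKM in the control library. EPCAM was at 1.57 FPKM in the GGT7 library and 2.29 FPKM in the control library. CLDN4 was at 2.96 FPKM in the GGT7 library and 2.71 FPKM in the control library. EPCAM was thus near the fibroblast marker COL1A1, at 1.60 FPKM in the GGT7 library and 2.46 FPKM in the control library. The blood marker PTPRC had 5 counts in each library. The summed FPKM of the 2 endothelial markers was 0.198 in the GGT7 library and 0.112 in the control library, and that of the 3 fibroblast markers was 1.88 in the GGT7 library and 2.64 in the control library. In such bulk RNA fewer cells that express a gene and less RNA per cell cannot be told apart. Values in parentheses after a fold are exact 95% intervals for counting error alone. With 1 library per group they say nothing of the spread between cultures, and such an interval excluded 1 for 44.9% of the 14238 genes.

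The pseudogene RHEBP1 is almost a copy of RHEB, and the differing bases are shown first because the values of both rows depend on them. RHEB (ENSG00000106615) lies on GRCh38 chromosome 7, 151466012 to 151520120, minus strand. RHEBP1 (ENSG00000229927) is a processed pseudogene, a copy made from a spliced transcript, on chromosome 10, 46634911 to 46635466, minus strand. Its 556 bases begin at the start codon of RHEB and run 1 base past the 555-base coding sequence. They match RHEB over 99.1% of positions, with 5 substitutions and no gap. Counted from 1 at the A of the start codon, with the RHEB base first, the substitutions are C12A, C169T, G354A, G471T and A489G. RHEBP2 (ENSG00000226964), a further pseudogene on chromosome 10 (47706203 to 47706802, plus strand), has the RHEBP1 base at each of these positions. RHEBP2 differs from RHEBP1 by 1 inserted base and by no substitution over the stretch that they share. The sequences are from GENCODE 29 transcripts, 5′ to 3′ on the strand of each gene.

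Bases 149 to 189 hold the substitution C169T, in capitals, which turns a codon of RHEB into a stop codon.
RHEB: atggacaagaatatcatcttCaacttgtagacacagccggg
RHEBP1: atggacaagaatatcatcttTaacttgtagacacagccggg
The reading frame of RHEB runs over 184 codons before its stop, and that of RHEBP1 and of RHEBP2 over 56.

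Bases 451 to 509 hold the pair G471T and A489G, again in capitals. They are the closest pair of the 5 differing positions, and a read inside the 556 bases that covers no differing position matches RHEB and RHEBP1 equally well.
RHEB: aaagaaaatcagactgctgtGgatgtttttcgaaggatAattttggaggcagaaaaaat
RHEBP1: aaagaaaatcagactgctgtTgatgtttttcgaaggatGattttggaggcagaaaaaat

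The inserted base that separates RHEBP2 from RHEBP1 lengthens a run of G, in capitals, from 4 bases to 5. Reads inside the shared stretch that do not span the whole run match both pseudogenes equally well. The genomic sequence around the 2 annotated pseudogenes was not compared.
RHEBP1: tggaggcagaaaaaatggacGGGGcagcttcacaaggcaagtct
RHEBP2: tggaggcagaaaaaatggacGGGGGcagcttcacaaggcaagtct

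The labels give no read length, so exact matches were counted for several window lengths. Of the 75-base windows of RHEBP1, 48.5% also occur in a RHEB transcript and 91.9% in RHEBP2, and 91.9% in either of these. Each window occurs in some other annotated gene when both strands and genes that overlap RHEBP1 are counted. Overlapping genes share the same genomic bases, so this does not show a second copy of every window. At 150 bases 10.3% occur in RHEB and 90.4% in RHEBP2. The sharing is smaller seen from RHEB: 11.7% of the 75-base windows of its 2075-base transcript RHEB-201 occur in either pseudogene, and 2.18% of the 150-base windows. RHEBP1 also shares 208 exonic bases on the same strand with SHLD2P1, a pseudogene that the table lists as FAM35BP. Of its 556 bases 291 lie opposite the lincRNA AL356056.3, which was not analysed here. The sources used here do not say whether counting used the strand.

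**Figure D1:**
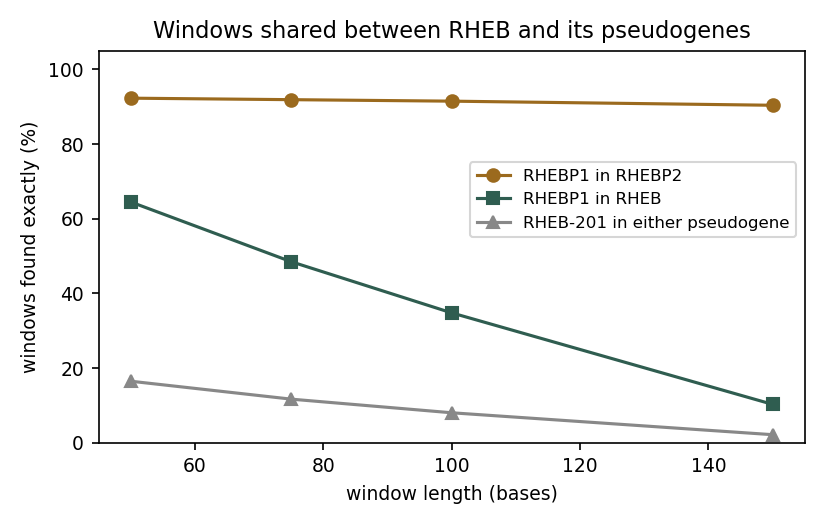
Share of sequence windows (percent, y axis) that occur exactly in another transcript, against window length in bases (x axis). The line of RHEBP1 windows found in RHEBP2 stays between 90.4% and 92.3%, while that of RHEBP1 windows found in RHEB drops with length, and windows of RHEB found in either pseudogene lie lowest.

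RHEBP1 was far lower in the GGT7 library, while RHEB, the GTPase that activates mTORC1, was not detectably different. RHEBP1 had 11 counts in the GGT7 library, or 1.92 FPKM, and 427 counts in the control library, or 56.9 FPKM. The ratio was 29.6-fold lower (16.4 to 59.8), and the difference of log2(FPKM + 1) was -4.31, the second lowest of the 14238 genes. RHEB had 712 counts in the GGT7 library, or 13.3 FPKM, and 906 counts in the control library, or 13.0 FPKM. That was 1.03-fold, with an interval from 0.932 to 1.14. The row of RHEBP2 held 534 counts in the GGT7 library and 678 in the control library, also 1.03-fold (0.920 to 1.16). So the low value stood in the RHEBP1 row, and the counting intervals of RHEB and RHEBP2 both included 1.

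The question whether RHEBP1 and RHEB moved against each other can be put in CPM, counts scaled to the same library total, in which rows of different length may be added. RHEBP1 was at 1.07 CPM in the GGT7 library and 31.7 CPM in the control library, a difference of -30.6 CPM. RHEB was at 69.2 CPM in the GGT7 library and 67.2 CPM in the control library, a difference of 2.00 CPM, and RHEBP2 differed by 1.61 CPM. The gain in the RHEB row was therefore much smaller than the deficit in the RHEBP1 row and lay within counting error.

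RHEB and RHEBP1 together had 723 counts in the GGT7 library, or 70.3 CPM, and 1333 counts in the control library, or 98.9 CPM. Their ratio was 0.711 (0.648 to 0.779). With RHEBP2 added, which was chosen after seeing the data, the 3 rows came to 122 CPM in the GGT7 library and 149 CPM in the control library, a ratio of 0.819 (0.763 to 0.879). How reads were assigned among the 3 rows was not tested. RHEBP1 held 0.875% of the 3-row counts in the GGT7 library and 21.2% in the control library, while RHEB held 56.6% in the GGT7 library and 45.1% in the control library. FAM35BP, which shares exonic bases with RHEBP1, had 125 counts in the GGT7 library and 138 in the control library, 1.19-fold (0.924 to 1.52), so the interval of the overlapping row included 1.

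**Figure D2:**
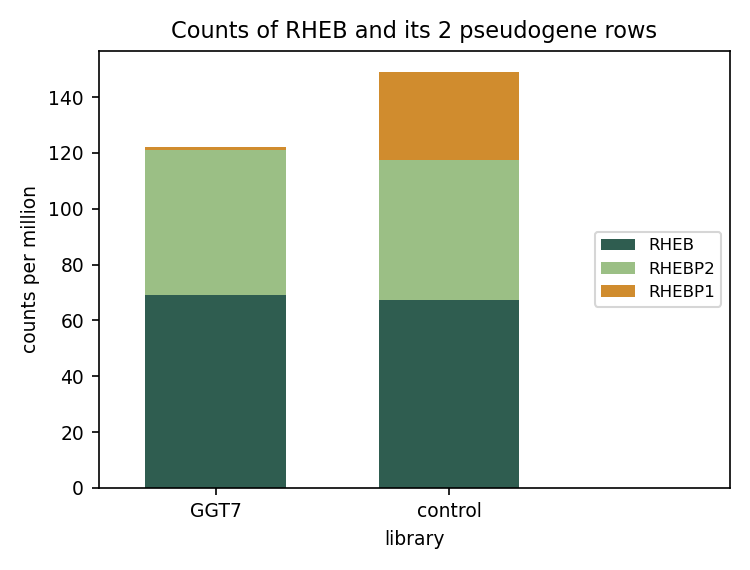
CPM (y axis) of RHEB, RHEBP2 and RHEBP1, stacked, in the GGT7 and the control library (x axis). RHEB and RHEBP2 are of about the same height in both bars, and the RHEBP1 block is 1.07 CPM in the GGT7 library and 31.7 CPM in the control library.

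Large differences were more frequent among processed pseudogenes than among protein-coding genes. At 1.5-fold or more lower on the log2(FPKM + 1) scale stood 12% of 1014 processed pseudogenes at 1 FPKM or more, and 2.86% of 10628 protein-coding genes. Higher by as much were 5.42% of these pseudogenes and 2.97% of these protein-coding genes. RHEBP1, as a processed pseudogene, belongs to the class with the larger shares at 1.5-fold. These shares do not show how frequent a difference as large as that of RHEBP1, 29.6-fold lower, was in the class. The classes were not matched for length or counts, and at the same FPKM a shorter gene has fewer counts.

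The kinase and its scaffold differed little. MTOR, which encodes the kinase (ENSG00000198793, minus strand of chromosome 1, 11106535 to 11262507), had 2678 counts in the GGT7 library, or 19.0 FPKM, and 3600 counts in the control library, or 19.4 FPKM. Its ratio was 0.975 (0.927 to 1.03), and the sign of the difference turns under upper quartile scaling. RPTOR, which encodes the subunit that presents substrates to the kinase (ENSG00000141564, chromosome 17, 80544819 to 80966371, plus strand), was at 7.24 FPKM in the GGT7 library and 8.23 FPKM in the control library. It was 1.14-fold lower (1.05 to 1.23), slightly beyond counting error and far inside 1.5-fold.

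The TSC complex, which stimulates GTP hydrolysis by RHEB, was also close to the control. TSC1, the stabilising subunit (ENSG00000165699, minus strand of chromosome 9, 132891348 to 132946874), was at 6.38 FPKM in the GGT7 library and 6.92 FPKM in the control library, 1.08-fold lower (1.00 to 1.17). TSC2, the catalytic subunit (ENSG00000103197, chromosome 16, 2047465 to 2089487, plus strand), was at 5.99 FPKM in the GGT7 library and 6.15 FPKM in the control library, a ratio of 0.974 (0.898 to 1.05) whose sign turns under upper quartile scaling. Some 11.2% of the 75-base windows of the longest TSC2 transcript are shared with PKD1 on the opposite strand, and PKD1 was 1.26-fold higher (1.17 to 1.35).

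SESN2 was the brake with the largest difference. It encodes sestrin 2, a leucine-binding inhibitor of the GATOR2 complex, and is known as a target of the stress factor ATF4 (ENSG00000130766, chromosome 1, 28259527 to 28282491, plus strand). It had 623 counts in the GGT7 library, or 17.5 FPKM, and 325 counts in the control library, or 6.98 FPKM. This was 2.51-fold higher (2.19 to 2.88), a log2(FPKM + 1) difference of 1.22 and rank 68 from the highest of 14238 genes. None of the 75-base windows of its longest transcript occurs in another annotated gene.

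The other sestrin genes were not higher. SESN1, known as a FOXO target (ENSG00000080546, minus strand of chromosome 6, 108986437 to 109094819), had 69 counts in the GGT7 library, or 0.902 FPKM, and 143 counts in the control library, or 1.43 FPKM. The ratio was 1.58-fold lower (1.18 to 2.14), while the difference of -0.35 on the log2(FPKM + 1) scale was inside 1.5-fold, since this scale understates low genes. Some 5.15% of the 75-base windows of its longest transcript are shared with AL390208.1 on the opposite strand, which was not analysed here. SESN3, known as a FOXO target (ENSG00000149212, minus strand of chromosome 11, 95165513 to 95232541), had 0 counts in the GGT7 library and 3 in the control library, at the limit of 3 counts that a count of 0 allows, so no fold is given.

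Over the 3 sestrin genes the summed counts were 692 in the GGT7 library (67.3 CPM) and 471 in the control library (34.9 CPM), a ratio of 1.93 (1.71 to 2.17). SESN2 held 90.0% of the sestrin counts in the GGT7 library and 69.0% in the control library. The sestrin pool in AGS cells was thus mainly SESN2 RNA in both libraries, in counts not corrected for length.

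DDIT4, also called REDD1, was the most abundant of the genes in the GGT7 library. It encodes a brake that acts through the TSC complex and is known to be induced by hypoxia, glucocorticoids and ATF4 (ENSG00000168209, chromosome 10, 72273920 to 72276036, plus strand). It had 2771 counts in the GGT7 library, or 89.1 FPKM, and 2143 counts in the control library, or 52.6 FPKM. That was 1.69-fold higher (1.60 to 1.79), a log2(FPKM + 1) difference of 0.75 and rank 290 from the highest. The antisense gene DDIT4-AS1 covers 41.8% of the 75-base windows of its longest transcript, but its row held only 4 counts in the GGT7 library and 1 in the control library. The paralog DDIT4L had 1 count in each library.

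By the rule of size, 1.5-fold or more on the log2(FPKM + 1) scale, SESN2 and DDIT4 were higher and RHEBP1 was lower, of 9 genes that reached 1 FPKM. SESN3 did not reach that level. Over all 14238 genes 3.92% were higher and 4.99% lower by as much, and the genes were chosen by this same contrast, so nothing is read from the count. The median difference over all genes was -0.03. At 2-fold or more were SESN2, higher, where 0.864% of all genes were, and RHEBP1, lower, where 1.17% were. The counting interval lay above 1 for SESN2 and DDIT4 (19.6% of all genes) and below 1 for RHEBP1, RPTOR, TSC1 and SESN1 (25.3% of all genes). For TSC1 the upper end was 0.999, at the very edge, and the intervals were not recalculated under other scalings.

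**Figure D3:**
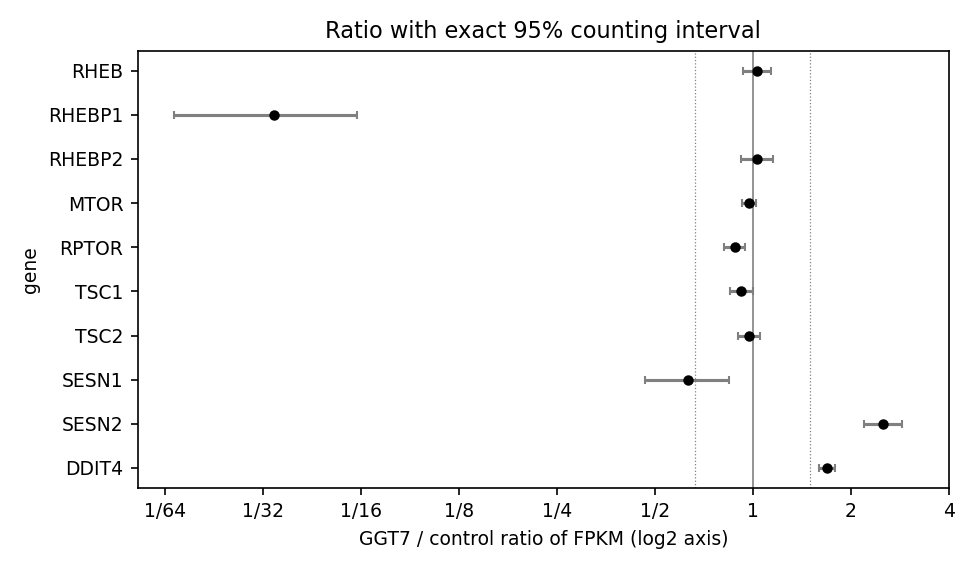
Ratio of FPKM, GGT7 over control (x axis, log2 spacing), for each gene except SESN3, and for RHEBP2 (y axis). Bars are the exact 95% counting intervals, and dotted lines mark 1.5-fold. SESN3, for which no fold is given, is not drawn. RHEB, RHEBP2, MTOR and TSC2 have intervals that include 1, SESN2 and DDIT4 lie to the right, and RHEBP1 lies far to the left at 29.6-fold lower.

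The order of levels was read per length, in FPKM. In the GGT7 library it ran from DDIT4 at 89.1 over MTOR at 19.0, SESN2 at 17.5, RHEB at 13.3, RPTOR at 7.24, TSC1 at 6.38, TSC2 at 5.99, RHEBP1 at 1.92 and SESN1 at 0.902 to SESN3 at 0. The neighbours MTOR and SESN2, TSC1 and TSC2, and RHEBP1 and SESN1 had overlapping exact Poisson intervals. The control library was led by RHEBP1 at 56.9 FPKM and DDIT4 at 52.6 FPKM, whose intervals overlapped, and SESN2 at 6.98 FPKM stood between RPTOR and TSC1, overlapping with TSC1. SESN2 was thus near MTOR in the GGT7 library and level with TSC1 in the control library.

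The length behind the deposited FPKM affects this order. It came to 556 bases for RHEBP1, its annotated length, but to 5185 bases for RHEB, against 3535 exonic bases in GENCODE 29. On the annotated length RHEB was at 19.6 CPM per kilobase in the GGT7 library and 19.0 in the control library, and DDIT4 was at 131 in the GGT7 library and 77.2 in the control library. On that scale DDIT4 stood above RHEBP1, at 57.0, in the control library too. The ratios between libraries do not depend on the length.

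**Figure D4:**
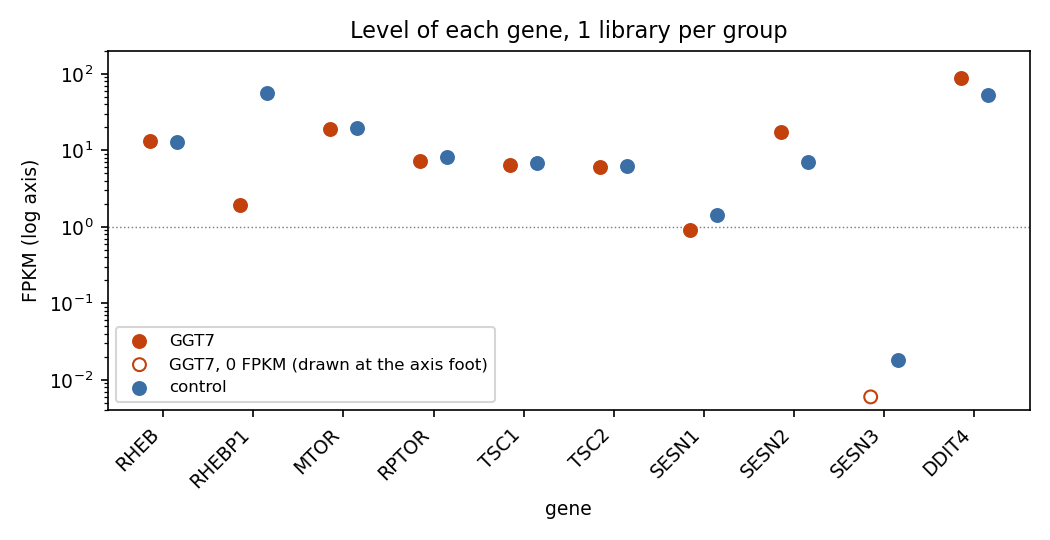
FPKM (log axis) of each of the 10 genes in the GGT7 library (left point of each pair) and the control library (right point), with the level of 1 FPKM dotted. SESN2 and DDIT4 have the higher point in the GGT7 library, RHEBP1 and SESN1 in the control library, and the GGT7 point of SESN3, at 0, is drawn open at the foot.

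SESN2 and DDIT4 were the protein-coding genes that passed the rule of size, and their promoters are shown for that reason. The bases are from RefSeq on GRCh38.p14 and are the first 240 bases of each promoter window, in a table where 9 of the 10 genes had a promoter. Capitals mark the CCAAT box, written here as found on the opposite strand, and in DDIT4 also the core of the hypoxia response element, ACGTG.
SESN2, chr1:28259268-28259507, plus strand: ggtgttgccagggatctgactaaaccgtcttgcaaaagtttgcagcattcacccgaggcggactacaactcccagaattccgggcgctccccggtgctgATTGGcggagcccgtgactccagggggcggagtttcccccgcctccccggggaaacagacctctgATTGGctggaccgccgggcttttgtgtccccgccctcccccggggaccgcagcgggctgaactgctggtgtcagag
DDIT4, chr10:72273674-72273913, plus strand: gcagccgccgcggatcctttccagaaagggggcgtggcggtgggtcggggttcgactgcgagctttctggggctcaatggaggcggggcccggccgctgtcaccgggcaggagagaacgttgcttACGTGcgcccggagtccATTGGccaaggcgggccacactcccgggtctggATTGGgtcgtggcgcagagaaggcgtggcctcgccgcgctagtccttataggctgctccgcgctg

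Each promoter has 2 matches of CCAAT, counted on both strands over 250 bases before to 50 after the start. Of 35116 promoters of this length 34.6% held at least 1 match and 10.8% at least 2, and RHEB had 2 and MTOR 3 without a difference of 1.5-fold. ACGTG occurred in DDIT4, RHEB and a TSC2 promoter, and in 21.4% of all promoters. The C/EBP-ATF response element TGATGNAAN, to which ATF4 is known to bind, matched in neither SESN2 nor DDIT4. It matched in a TSC2 promoter, where it overlaps ACGTG, and in 3.61% of all promoters. The forkhead element GTAAACA, searched for FOXO factors, was found in no promoter of these genes and in 3.42% of all. A match is a description of letters in this window and not a site, and elements farther away were not searched.

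The wider pathway was taken from 8 lists with 93 genes, of which 92 had a row and 86 reached 1 FPKM. By the rule of size 5 were higher and 2 lower, together 8.14%, against 8.91% of all genes, and the median difference was -0.03, the same as over all genes. The share is near that of all genes, so nothing is read from it about the pathway. Over all 14238 genes 12969 lay within 1.5-fold, against which the counts within 1.5-fold of each list stand.

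Partners of the mTOR complexes had 9 of 10 genes within 1.5-fold and a median difference of -0.02. The exception was PRR5L, which encodes a protein bound to mTORC2, with 274 counts in the GGT7 library and 46 in the control library, 7.81-fold higher (5.70 to 10.9). Its level was low, at 1.73 FPKM in the GGT7 library and 0.222 FPKM in the control library. RICTOR, the scaffold of mTORC2, was at 21.4 FPKM in the GGT7 library and 24.8 FPKM in the control library. TTI1, which helps the kinase to assemble, was lowest at 1.37-fold lower.

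Inputs to the TSC complex had 14 of 15 genes within 1.5-fold, with a median of -0.17 and 12 below 0, where 7795 of all 14238 genes were. IRS1, the adaptor of the insulin and IGF1 receptors, was the exception, at 4.60 FPKM in the GGT7 library and 1.81 FPKM in the control library, 2.54-fold higher (2.18 to 2.97). The other adaptor gene, IRS2, was at 14.1 FPKM in the GGT7 library and 17.1 FPKM in the control library. PDPK1, which activates AKT, was lowest at 1.42-fold lower (1.24 to 1.63).

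Of AMPK and its activating kinases 10 genes reached 1 FPKM, none 1.5-fold apart on the log2(FPKM + 1) scale, with a median of -0.02. CAMKK2, a calcium-dependent kinase of AMPK, was highest at 3.99 FPKM in the GGT7 library and 2.40 FPKM in the control library. PRKAA1, the catalytic AMPK subunit with the higher level here, was lowest at 28.2 FPKM in the GGT7 library and 36.9 FPKM in the control library. STK11, the other AMPK kinase, was below 1 FPKM, with 24 counts in the GGT7 library and 36 in the control library.

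The sestrins act through the amino acid branch. GATOR1 and KICSTOR, the inhibitory complexes, had all 7 genes within 1.5-fold with a median of -0.14, and C12orf66 was highest at 1.28-fold higher. GATOR2 and the amino acid sensors had all 8 genes within 1.5-fold with a median of -0.04, from GATSL2, now called CASTOR2, at 1.49-fold lower (1.22 to 1.83) to SEC13 at 1.16-fold higher. The Rag GTPases and Ragulator, which bring mTORC1 to the lysosome, had 11 of 12 within 1.5-fold and a median of -0.17. LAMTOR1, which anchors Ragulator in the lysosomal membrane, was at 5.01 FPKM in the GGT7 library and 8.05 FPKM in the control library, 1.61-fold lower (1.38 to 1.88). Its difference of -0.59 on the log2(FPKM + 1) scale lay at the edge of the rule of size, and came inside 1.5-fold under TMM (-0.58), DESeq2 (-0.57) and upper quartile (-0.56) scaling. LAMTOR2 was 1.42-fold higher (1.21 to 1.66).

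Substrates of mTORC1 had 10 of 12 genes within 1.5-fold and a median of -0.10. GRB10, an adaptor that dampens insulin signalling, was at 3.05 FPKM in the GGT7 library and 1.48 FPKM in the control library, 2.07-fold higher (1.81 to 2.36). LPIN1, a phosphatidate phosphatase, was at 0.988 FPKM in the GGT7 library and 2.28 FPKM in the control library, 2.31-fold lower (1.98 to 2.70).

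Stress regulators, among them known activators of SESN2 and DDIT4, were the list that stood highest, with a median of 0.27 and 10 of 12 above 0, where 6443 of all 14238 genes were. At 1.5-fold or more were TRIB3, a pseudokinase that binds AKT, at 24.4 FPKM in the GGT7 library and 13.8 FPKM in the control library, and ATF4, at 96.0 FPKM in the GGT7 library and 62.5 FPKM in the control library. TRIB3 was 1.77-fold higher (1.62 to 1.93) and ATF4 1.54-fold higher (1.47 to 1.61). HIF1A was 1.43-fold higher (1.37 to 1.49).

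RHEBL1, the RHEB-like GTPase gene, was at 4.22 FPKM in the GGT7 library and 2.77 FPKM in the control library. That was 1.52-fold higher (1.16 to 2.00) on 121 counts in the GGT7 library and 104 in the control library, and inside 1.5-fold on the log2(FPKM + 1) scale.

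**Figure D5:**
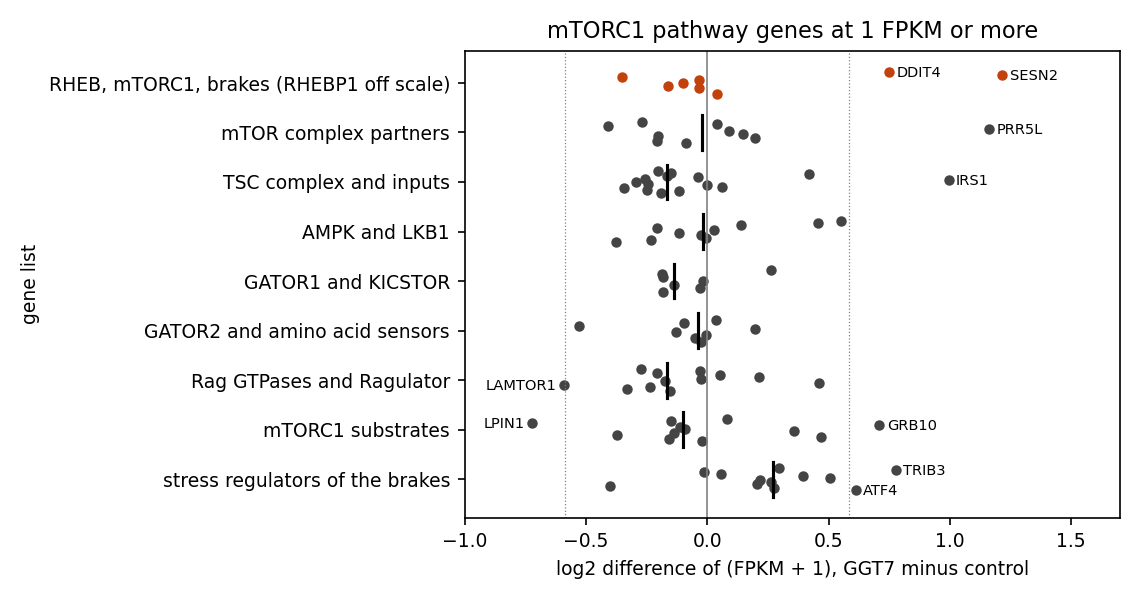
Difference of log2(FPKM + 1), GGT7 minus control (x axis), of each gene at 1 FPKM or more, by list (y axis). Points are genes, black bars are list medians, and dotted lines mark 1.5-fold. Most points lie between the dotted lines, and the genes outside are named. RHEBP1, at -4.31, is off the scale.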

How the data were processed

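Total RNA of AGS cells was sequenced in 2 Illumina libraries, per the labels' protocols. Tools named in the submitters' processing notes, without roles, are edgeR, HISAT2 and StringTie 1.3.0, with the build GRCh38. Annotation, counting tool, strand setting and read length: not given in the sources used here. For each gene the authors deposited a raw count and an FPKM value in both libraries, per the file headers. These deposited counts are whole numbers, and were handled in the estimated count class, and 1 FPKM column as another unit, only because a broken line holds shifted cells. That line and the empty row before it were left out of 23378 lines.

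Rows were kept by gene ID. Differences are log2((GGT7 FPKM + 1)/(control FPKM + 1)), and folds are ratios without the pseudocount, with Clopper-Pearson intervals. With 1 library per group no test was possible and nothing has a replicate check. Genes, lists, motifs and rules were chosen with earlier results of these data known. Named were the 10 genes, RHEB and DDIT4 relatives, GGT7, and in each list the highest, the lowest and any gene past 1.5-fold, with a few others (IRS2, RICTOR, STK11, HIF1A) added after their values were seen. The lowest gene of 2 lists is not reported here. No gene was named for likeness of pattern, since 2 libraries give 1 difference per gene. Positions and transcripts came from GENCODE 29, matched by ID for 23165 of 23376 rows. Alternatives used edgeR 4.0.16 (TMM and upper quartile) and DESeq2 1.42.0 size factors, with Python 3.11.15, scipy 1.17.1 and R 4.3.3.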

Additional observations from a re-analysis of the deposited data

How the results depend on the processing

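No paired analysis was possible because each group has 1 library, and for the same reason no library could be left out. Scaling by TMM, DESeq2 size factors or the upper quartile shifted all ratios by 0.01, 0.03 and 0.04 on the log2 scale and moved none of the 10 genes across 1.5-fold; the upper quartile turned the sign of MTOR and TSC2. The number of the 10 genes past 1.5-fold stayed at 3 under each scaling, with a pseudocount of 5, with no filter and at 5 FPKM. It was 4, with SESN1 added, with a pseudocount of 0.1 or none, and 2 at 2-fold. RHEBP1 was at -3.16 with a pseudocount of 5, which shrinks low genes. Summing its counts with RHEBP2 gave -0.62 and with FAM35BP -1.59, and adding RHEBP2 to the sum of RHEB and RHEBP1 gave -0.29; these sums were chosen after seeing the data. SESN1, at -0.35, was at -0.12 with a pseudocount of 5, -0.61 with 0.1 and -0.66 with none, and SESN2, at 1.22, was at 0.91 with a pseudocount of 5. Over all genes 558 were higher and 711 lower by 1.5-fold, against 132 and 124 with a pseudocount of 5, 1021 and 1300 with 0.1, and 1097 and 1437 with none. Of the pathway lists, 5 genes higher and 2 lower became 5 and 1 under each scaling, without LAMTOR1, 6 and 2 with a pseudocount of 0.1 or none, with CAMKK2 added, and 1 and 0 with a pseudocount of 5, where TRIB3 remained; this was run after seeing that LAMTOR1 lay near 1.5-fold. Depth limits RHEBP1 in the GGT7 library (11 counts), SESN1 and SESN3.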

Other observations

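Within 100000 bases of RHEBP1 on chromosome 10, 5 further rows were found. GPRIN2, which encodes a regulator of neurite outgrowth, had 74 counts in the GGT7 library and 133 in the control library, 0.729-fold (0.541 to 0.976). SYT15, a synaptotagmin gene, had 38 counts in the GGT7 library and 54 in the control library, and FAM35BP, which overlaps RHEBP1, had 125 in the GGT7 library and 138 in the control library. The remaining 2 rows had 9 counts or fewer in each library. No neighbour with more than 10 counts was 1.5-fold or more apart, whereas RHEBP1 was 29.6-fold lower in the GGT7 library.

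AC007192.4 was chosen after its values were seen. It shares 3947 of the 4524 exonic bases of PIK3R2, a regulatory subunit gene of PI3-kinase, on the same strand. The AC007192.4 row had 2 counts in the GGT7 library and 289 in the control library, a ratio of 0.00907 (0.00109 to 0.0331). PIK3R2 itself had 513 counts in the GGT7 library and 848 in the control library, a ratio of 0.793 (0.709 to 0.886).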
